A study of Homo sapiens with 21 samples.

Results

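BT-TR2 is a pool of cells derived from BT474 that is resistant to trastuzumab, and it was compared here with the parental BT474 line. BT474 is a human breast cancer line with amplified ERBB2, the gene for the receptor HER2. The comparison took 6 of the study's 21 RNA-seq libraries, 3 of BT-TR2 and 3 of BT474, chosen by their labels and not by any measured value, and it covered all genes of the deposited count table. BT-TR2 cells had been kept without antibody for 7 days before harvest, and the BT474 cells of this comparison had received no treatment. Both grew in RPMI-1640 with fetal bovine serum to 80% confluence. The other groups, also of 3 libraries each, were the second trastuzumab-resistant pool BT-TR1, the pools BT-TPR1 and BT-TPR2 that are resistant to trastuzumab with pertuzumab, and BT474 given 10 µg/mL trastuzumab, alone or with 10 µg/mL pertuzumab, for 3 days. The 4 pools share the BT474 background. BT-TR2 is 1 pool, and the labels do not say how it was selected or whether its 3 libraries came from separate cultures, so the p-values below cover no more than the variation among these libraries, which may be technical.

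HER2 is a receptor tyrosine kinase that drives proliferation through the PI3K and ERK pathways when its gene is amplified. Trastuzumab is an antibody against the outer part of HER2, and pertuzumab binds a different site and blocks pairing of HER2 with its partner receptors. Tumour cells that grow on in trastuzumab have been described with other receptors, altered PI3K signalling or a changed differentiation state, and the design asks which transcripts differ between such a pool and its sensitive parent.

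Of 37355 genes in the table, 17650 had enough counts to be tested. Levels are given as CPM, counts scaled to a common normalized library size, for replicates 1, 2 and 3 in that order. Changes are log2 fold changes of BT-TR2 over BT474 with their standard error, tested with edgeR's quasi-likelihood test, and a gene was called at a Benjamini-Hochberg adjusted p under 0.05. BT-TR2 and BT474 differed at 4387 genes, 24.9% of those tested, with 2245 higher (12.7%) and 2142 lower (12.1%). With replicate number as a block the test called 8076 genes, among them all 4387. Changes over 2-fold were found at 487 of the higher and 650 of the lower genes, and changes over 4-fold at 143 higher and 95 lower genes. The median log2 fold change of all tested genes was -0.0024. The 3 libraries of BT-TR2 all lay above the 3 of BT474 at 19.7% of tested genes and all below at 18.4%. In the text the lists are described by such counts, to be read against 12.7% and 12.1%. List counts with the block are to be read against its own, larger shares, 4049 higher and 4027 lower of 17650 genes. Members whose call was lost when 1 library was left out are mostly counted without being named.

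**Figure D1:**
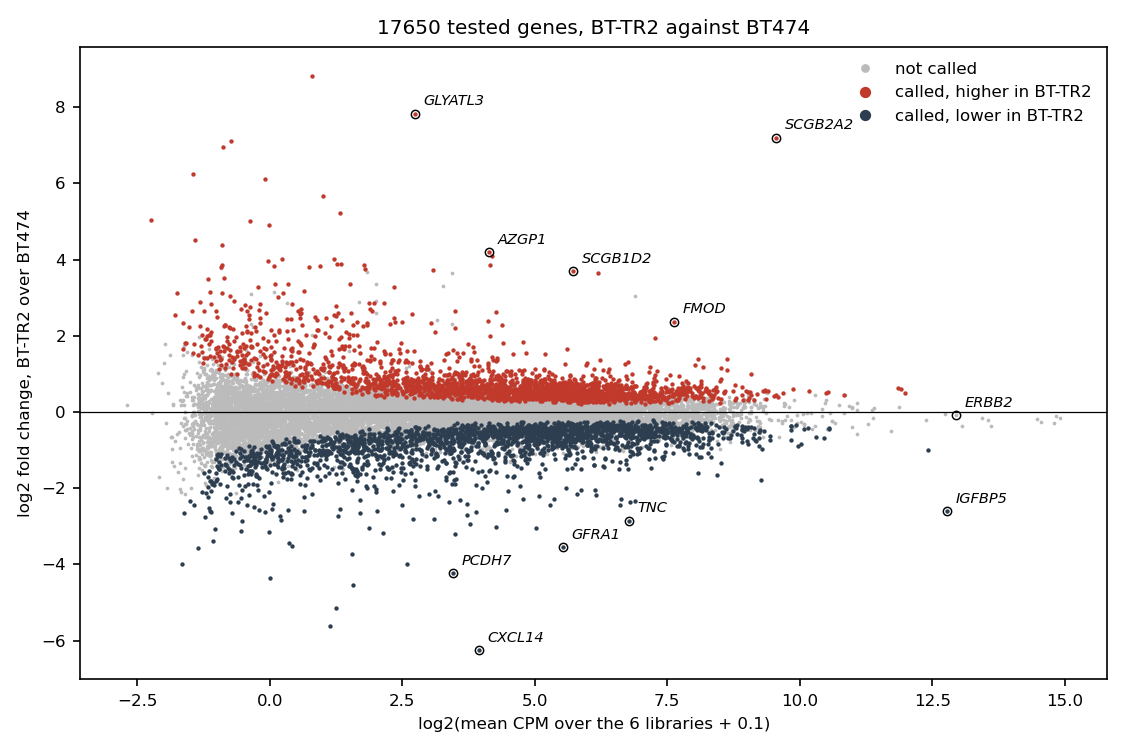
Each point is 1 of 17650 tested genes, with the log2 of its mean CPM over the 6 libraries (plus 0.1) on the x axis and its log2 fold change, BT-TR2 over BT474, on the y axis. Called genes are coloured by direction, SCGB2A2 stands out at a change of 7.20 and a high level, and ERBB2, among the most abundant, lies at -0.09.

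Library totals were 17472244, 17886199 and 15186744 counts in BT-TR2 and 20287901, 19516112 and 21746391 counts in BT474. The other pools were sequenced less deeply in part, with 7939270 to 13432287 counts in BT-TR1, 14122216 to 16737677 in BT-TPR1 and 15880398 to 19559313 in BT-TPR2. Replicate 1 stood apart in both groups. Across genes its deviation from the group mean correlated with GC content at r = 0.573 in BT-TR2 and 0.624 in BT474, against -0.527 to -0.27 in replicates 2 and 3, genes not being independent replicates. The fold change of BT-TR2 over BT474 itself correlated with GC content at r = -0.0863. Mitochondrially encoded transcripts took 21.7%, 16.2% and 18.9% of counts in BT-TR2 and 24.5%, 19.9% and 18.2% in BT474. Of 10 luminal epithelial markers 9 were tested, none rose (1 with the replicate block) and 4 fell, while the keratin genes KRT8, KRT18 and KRT19 and EPCAM were not called. Of 23 markers of blood, endothelial, stromal and other cells 19 were in the table and 5 were tested. PTPRC, COL1A2 and DCN had 0 counts in all 6 libraries, and 10 of the 19 had at most 10 counts in each group. Over the 3 libraries of each group, COL1A1 had 1606 counts in BT-TR2 and 1896 in BT474, VWF 543 and 743, and PMEL 74 and 74. In bulk RNA, fewer cells of a type and less RNA per cell cannot be told apart. The summed level of the markers of other cells was 38.4 to 58.7 CPM in BT-TR2 and 36.5 to 67.3 CPM in BT474. CDH5, an endothelial cadherin, was the only called marker, with 104 counts over the 3 BT-TR2 libraries and 7 over the 3 BT474 libraries (4.01 ± 0.39, adjusted p = 5.3e-07). Without BT474 replicate 1 that change was 4.67.

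ERBB2 itself was not called. It stood at 9510, 6300 and 7290 CPM in BT-TR2, against 10300, 6670 and 7530 CPM in BT474, and the libraries overlapped (-0.09 ± 0.24, adjusted p = 0.821). Replicate 1 was the highest library in both groups. The value was near 0 with either sign: it was 0.13 without BT474 replicate 1, 0.03 without BT-TR2 replicate 2 and 0.01 with a correction for GC content. Among the partner receptors, EGFR rose to 61.6, 72.4 and 78.7 CPM in BT-TR2, against 46.6, 42.4 and 46.6 CPM in BT474 (0.65 ± 0.13, adjusted p = 0.00124), and the BT-TR2 libraries all lay above those of BT474. ERBB4 fell to 9.06, 8.75 and 7.82 CPM in BT-TR2, against 14, 17.5 and 13.7 CPM in BT474 (-0.82 ± 0.15, adjusted p = 0.000694). ERBB3, the kinase-impaired partner that couples HER2 to PI3K, stood at 496, 454 and 508 CPM in BT-TR2, against 551, 522 and 525 CPM in BT474 and was not called (-0.13 ± 0.12, adjusted p = 0.443).

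Of the 7 tested ligands of the HER receptors, 1 rose and 4 fell, and their median change was -0.64. TGFA, a ligand of EGFR, stood at 16.7, 16.3 and 17.9 CPM in BT-TR2, against 11.7, 13.3 and 11.6 CPM in BT474 (0.47 ± 0.11, adjusted p = 0.00399). AREG, amphiregulin, fell to 4.5, 5.51 and 5.19 CPM in BT-TR2, against 12.2, 20 and 14.3 CPM in BT474 (-1.61 ± 0.23, adjusted p = 4e-05), and NRG3, a neuregulin that binds ERBB4, stood at 1.26, 1.49 and 1.22 CPM in BT-TR2, against 4.83, 4.29 and 4.95 CPM in BT474 (-1.81 ± 0.21, adjusted p = 5e-06). The other called falls, BTC (-0.64) and EGF (-0.71), had means under 5 CPM and rested on single libraries. BTC was not called without BT474 replicate 2, BT-TR2 replicate 1 or BT-TR2 replicate 2, nor EGF without replicate 2 or 3 of either group. Without replicate 2 of either group 3 ligands in all were called.

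Among 23 tested neighbours of ERBB2 on 17q12, 4 rose and none fell, with a median of 0.06, and with the replicate block 7 rose and 3 fell. PPP1R1B (DARPP-32, a phosphatase inhibitor whose short form t-DARPP is known from trastuzumab-resistant cells) reached 31.8, 34.5 and 33.5 CPM in BT-TR2, against 2.14, 2.02 and 2.63 CPM in BT474, with no overlap (3.87 ± 0.17, adjusted p = 1.72e-11). The table counts reads per gene, so the short and the long form cannot be told apart. MIEN1, the gene next to ERBB2, rose to 290, 270 and 269 CPM in BT-TR2, against 154, 120 and 155 CPM in BT474 (0.95 ± 0.11, adjusted p = 7.12e-06). THRA (0.52), a thyroid hormone receptor, and WIPF2 (0.33), an actin regulator, were the other called rises, and both were lost without BT474 replicate 2, which left 2 called neighbours. THRA was lost also without BT-TR2 replicate 1, and WIPF2 without BT474 replicate 1 or BT-TR2 replicate 2 or 3.

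Secreted proteins of glandular epithelium were among the largest rises. SCGB2A2 (mammaglobin-A, a small secreted protein of mammary epithelium; ENSG00000110484.6, chromosome 11, 62270155 to 62273156, hg38) stood at 1670, 1350 and 1470 CPM in BT-TR2, against 10.1, 11.5 and 8.89 CPM in BT474. That is a 147-fold higher level in BT-TR2 (7.20 ± 0.18, adjusted p = 1.13e-15). SCGB1D2 (lipophilin-B, with which mammaglobin forms a complex; ENSG00000124935.3, chromosome 11, 62242210 to 62244808) stood at 123, 83 and 87.7 CPM in BT-TR2, against 9.07, 6.31 and 7.3 CPM in BT474 (3.70 ± 0.18, adjusted p = 8.6e-11). SCGB2A1 (mammaglobin-B; ENSG00000124939.5, chromosome 11, 62208668 to 62213939), which is under the level of 5 CPM required of named genes and was added after its values were seen, stood at 4.86, 4.43 and 3.78 CPM in BT-TR2, against 1.15, 1.09 and 0.907 CPM in BT474 (2.05 ± 0.26, adjusted p = 1.06e-05). The 3 genes run in the same direction on chromosome 11, with starts that lie within 61.5 kb. In none of them did the libraries of BT-TR2 and BT474 overlap. SCGB2A1 resembles the far more abundant SCGB2A2 in sequence around the start, so reads of SCGB2A2 could be counted for it. Whether such reads account for the change of SCGB2A1 was not tested.

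The promoters of these 3 neighbours are shown because all 3 were called higher. The sequences are from RefSeq on GRCh38.p14, each covering 250 bases before and 50 after the annotated start on the plus strand. Capitals mark runs of 10 or more bases that SCGB2A2 and SCGB2A1 share at the same distance from the start.
SCGB2A2, chr11:62269908-62270207: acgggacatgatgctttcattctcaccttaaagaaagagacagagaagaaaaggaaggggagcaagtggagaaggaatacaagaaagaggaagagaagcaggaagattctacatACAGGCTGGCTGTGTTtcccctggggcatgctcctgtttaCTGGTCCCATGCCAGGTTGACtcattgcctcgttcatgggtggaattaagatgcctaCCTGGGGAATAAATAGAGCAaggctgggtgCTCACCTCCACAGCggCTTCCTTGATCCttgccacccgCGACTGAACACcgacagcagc
SCGB2A1, chr11:62208423-62208722: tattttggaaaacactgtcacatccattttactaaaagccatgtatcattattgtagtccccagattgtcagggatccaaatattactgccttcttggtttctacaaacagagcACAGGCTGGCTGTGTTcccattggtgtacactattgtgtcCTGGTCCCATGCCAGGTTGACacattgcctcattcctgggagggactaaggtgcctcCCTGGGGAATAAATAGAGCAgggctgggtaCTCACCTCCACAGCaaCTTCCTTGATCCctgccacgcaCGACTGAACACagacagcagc
SCGB1D2, chr11:62241989-62242288: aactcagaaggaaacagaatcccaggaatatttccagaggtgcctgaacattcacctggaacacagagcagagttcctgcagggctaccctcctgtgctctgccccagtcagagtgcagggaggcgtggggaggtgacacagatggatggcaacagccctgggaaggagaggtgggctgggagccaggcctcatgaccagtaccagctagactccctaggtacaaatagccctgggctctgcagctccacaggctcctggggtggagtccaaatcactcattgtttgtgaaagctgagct
Without gaps, SCGB2A2 and SCGB2A1 were identical at 186 of 300 positions, and at 153 of the last 180 (85%), with a longest shared run of 21 bases. SCGB1D2 matched SCGB2A2 at 24.3% of positions and shared no run of 10 bases with it. The letters AATAAATA, searched on both strands, occur 32 bases before the start in SCGB2A2 and in SCGB2A1 and in 2.05% of 35116 promoter windows. TATAAA, the usual TATA box, was in none of the 3 windows and in 11.5% of all windows. CCAAT was found in SCGB2A1 on the other strand, 117 bases before the start, and in 34.6% of all windows. A match describes letters and does not show binding, and no methylation or binding was measured.

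Other mammary secretory genes moved in the same direction. Of 17 tested genes on that list 11 rose and 2 fell, with a median of 1.38, and with any 1 library left out 11 or 12 rose. AZGP1 (zinc-alpha-2-glycoprotein, a lipid-mobilising protein of secretory epithelium) reached 37.2, 29.2 and 33.3 CPM in BT-TR2, against 1.98, 1.86 and 1.59 CPM in BT474 (4.20 ± 0.23, adjusted p = 2.3e-10). CEACAM5 (carcinoembryonic antigen) stood at 29.1, 24 and 33.5 CPM in BT-TR2, against 4.89, 4.76 and 6.71 CPM in BT474 (2.40 ± 0.21, adjusted p = 1.04e-07). It resembles other CEACAM genes in sequence, so reads could be split between them. The apocrine marker PIP was not called, at 3.48, 3.45 and 3.85 CPM in BT-TR2 and 5.6, 2.95 and 4.58 CPM in BT474 (-0.29 ± 0.25, adjusted p = 0.427). The falls were TFF1, a trefoil peptide, at 193, 125 and 136 CPM in BT-TR2, against 376, 226 and 273 CPM in BT474 (-0.95 ± 0.23, adjusted p = 0.00547), and CLU, clusterin, at 278, 223 and 250 CPM in BT-TR2, against 488, 452 and 403 CPM in BT474 (-0.84 ± 0.16, adjusted p = 0.000757).

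The remaining large rises covered several functions. GLYATL3, which had the largest rise among genes that met the rule for naming, encodes a member of the glycine N-acyltransferase family. It stood at 12.5, 12.4 and 14.3 CPM in BT-TR2, against 0, 0.103 and 0.0454 CPM in BT474, where BT474 had 3 counts in 3 libraries, a ratio of 258 with a 95% exact interval of 88 to 1260 that covers counting error only. S100P, a secreted calcium-binding protein, stood at 45.6, 32.4 and 24.5 CPM in BT-TR2, against 2.75, 1.65 and 1.68 CPM in BT474 (4.08 ± 0.27, adjusted p = 3.28e-09). CXCL17, a mucosal chemokine, reached 147, 127 and 131 CPM in BT-TR2, against 10.4, 10.8 and 11.3 CPM in BT474 (3.64 ± 0.19, adjusted p = 2.13e-10). ASS1, which makes argininosuccinate for arginine synthesis, reached 22.7, 15.8 and 19.4 CPM in BT-TR2, against 3.79, 2.84 and 2.68 CPM in BT474 (2.64 ± 0.18, adjusted p = 3.59e-09). CST1, a secreted cysteine protease inhibitor, stood at 38.8, 26.9 and 33 CPM in BT-TR2, against 6.15, 4.03 and 5.85 CPM in BT474 (2.62 ± 0.27, adjusted p = 9.32e-07). AMBP, the precursor of alpha-1-microglobulin and bikunin, had a change of 3.27 ± 0.36, and NYNRIN of 2.56 ± 0.22. In each of these 7 genes the lowest BT-TR2 library exceeded the highest BT474 library.

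Of 13 tested genes on the S100 list 9 rose and none fell, with a median of 0.96, and 9 rose with any 1 library left out. Beside S100P, S100A4, which binds myosin, stood at 20.8, 17.9 and 16.3 CPM in BT-TR2, against 4.23, 3.36 and 4.26 CPM in BT474 (2.21 ± 0.19, adjusted p = 7.06e-08). S100A14 rose to 490, 521 and 498 CPM in BT-TR2, against 229, 193 and 255 CPM in BT474 (1.16 ± 0.10, adjusted p = 1.48e-07). The list also holds S100PBP, an S100P-binding protein, which was not called.

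**Figure D2:**
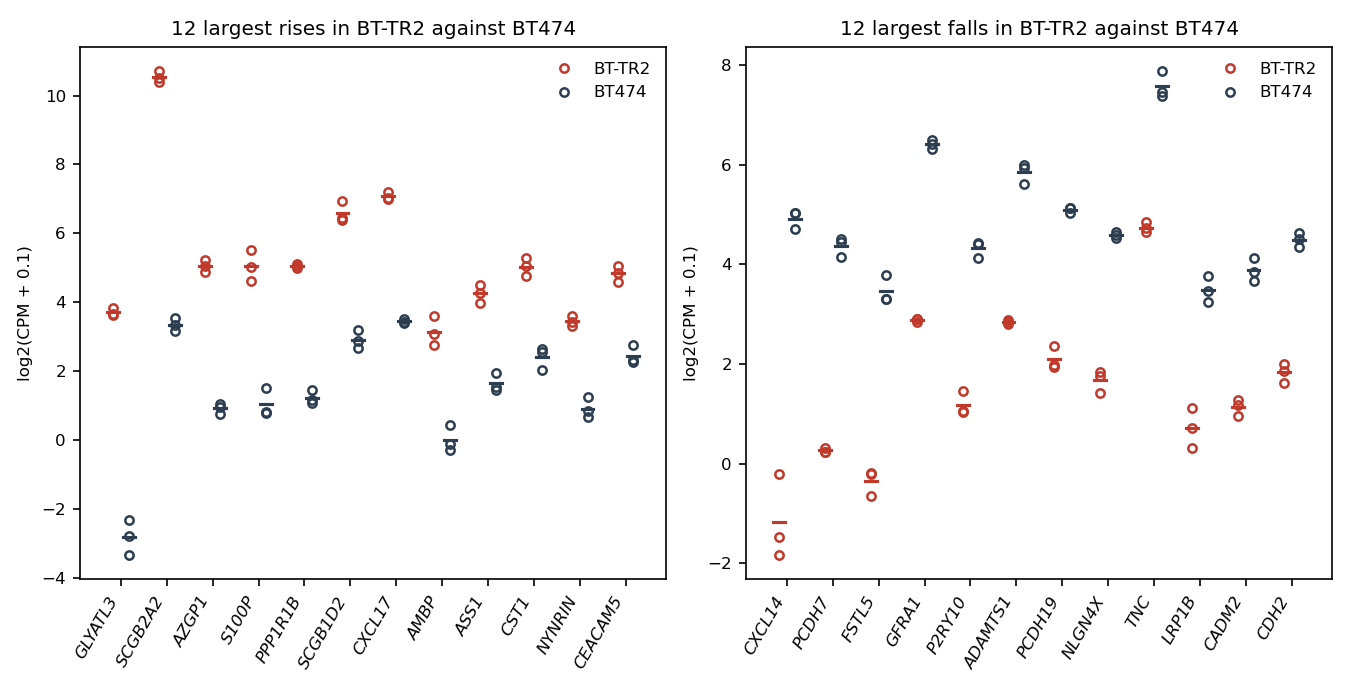
The log2 of CPM plus 0.1 is plotted on the y axis for each library, BT-TR2 left of BT474 within each gene, for the 12 genes with the largest called rises (left panel) and the 12 with the largest called falls (right panel); short bars are means. In all 24 genes the 3 libraries of BT-TR2 lie apart from the 3 of BT474, as the rule for naming them required.

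The largest falls included adhesion proteins best known from neurons. CXCL14, an epithelial chemokine, fell to 0.18, 0.257 and 0.769 CPM in BT-TR2, against 32.6, 32.5 and 26 CPM in BT474 (-6.26 ± 0.34, adjusted p = 2.3e-10). Replicate 3 was the highest of the BT-TR2 libraries, and without it the change was -7.06. PCDH7, a protocadherin, fell to 1.08, 1.08 and 1.15 CPM in BT-TR2, against 21.8, 22.8 and 17.7 CPM in BT474 (-4.22 ± 0.25, adjusted p = 6.04e-10), and PCDH19 to 5.04, 3.76 and 3.85 CPM in BT-TR2, against 34.8, 32.8 and 34.8 CPM in BT474 (-3.02 ± 0.17, adjusted p = 4.37e-10). NLGN4X, a neuroligin, stood at 2.58, 3.5 and 3.27 CPM in BT-TR2, against 24.9, 24.1 and 23.1 CPM in BT474 (-2.94 ± 0.14, adjusted p = 3.95e-11). GFRA1, the receptor that presents GDNF to the kinase RET, fell to 7.38, 7.36 and 7.12 CPM in BT-TR2, against 90.5, 85.8 and 80.3 CPM in BT474 (-3.55 ± 0.14, adjusted p = 2.87e-12). Its partner RET fell to 133, 96.4 and 114 CPM in BT-TR2, against 282, 218 and 207 CPM in BT474 (-1.04 ± 0.19, adjusted p = 0.000517). TNC, the matrix protein tenascin-C, fell to 26.3, 25.1 and 28.7 CPM in BT-TR2, against 236, 176 and 167 CPM in BT474 (-2.85 ± 0.15, adjusted p = 2.13e-10). ADAMTS1, a secreted metalloprotease, fell to 6.84, 7.05 and 7.31 CPM in BT-TR2, against 63.6, 61.1 and 49.3 CPM in BT474 (-3.04 ± 0.16, adjusted p = 2.13e-10). CDH2, N-cadherin, fell to 3.54, 2.99 and 3.91 CPM in BT-TR2, against 20.3, 22.8 and 24.6 CPM in BT474 (-2.70 ± 0.19, adjusted p = 7.17e-09). The other 4 of the 12 were FSTL5 (-3.99), the purine receptor family gene P2RY10 (-3.20), the endocytic receptor LRP1B (-2.82) and the adhesion gene CADM2 (-2.81).

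Over the list of protocadherins and neuronal adhesion genes, 17 of 24 tested members fell and none rose, with a median of -1.22. With any 1 library left out 17 fell and at most 1 rose, and with the block 19 fell and 1 rose. Among receptor tyrosine kinases outside the HER family 14 of 25 fell and none rose, with a median of -0.77, and with the block 20 fell and 1 rose. EPHA4, an ephrin receptor, fell to 9.36, 12.2 and 12.1 CPM in BT-TR2, against 35.4, 37.1 and 36.8 CPM in BT474 (-1.70 ± 0.14, adjusted p = 5.93e-08), and MERTK, a receptor for Gas6, to 10.7, 8.75 and 12.4 CPM in BT-TR2, against 34.2, 36.6 and 30.5 CPM in BT474 (-1.67 ± 0.14, adjusted p = 8.77e-08). EPHA2 stood at 10.1, 5.97 and 6.48 CPM in BT-TR2, against 31.2, 20.2 and 16.2 CPM in BT474 (-1.58 ± 0.25, adjusted p = 0.000163). IGF1R, the insulin-like growth factor receptor, fell to 92.2, 72.5 and 82.9 CPM in BT-TR2, against 198, 150 and 144 CPM in BT474 (-0.99 ± 0.16, adjusted p = 0.000162). MET was not called (0.20 ± 0.10, adjusted p = 0.157), but was with the replicate block (0.19 ± 0.07, adjusted p = 0.0288). Of 20 tested ligands of these kinases 1 rose and 9 fell. KITLG, the ligand of KIT, fell to 45.9, 52.7 and 55.1 CPM in BT-TR2, against 108, 139 and 127 CPM in BT474 (-1.28 ± 0.13, adjusted p = 1.09e-06), EFNB2, an ephrin, had a change of -1.01 ± 0.10, and VEGFB, the call in the other direction, stood at 9.12, 7.1 and 6.09 CPM in BT-TR2, against 4.56, 1.76 and 2.72 CPM in BT474 (1.31 ± 0.24, adjusted p = 0.000567).

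**Figure D3:**
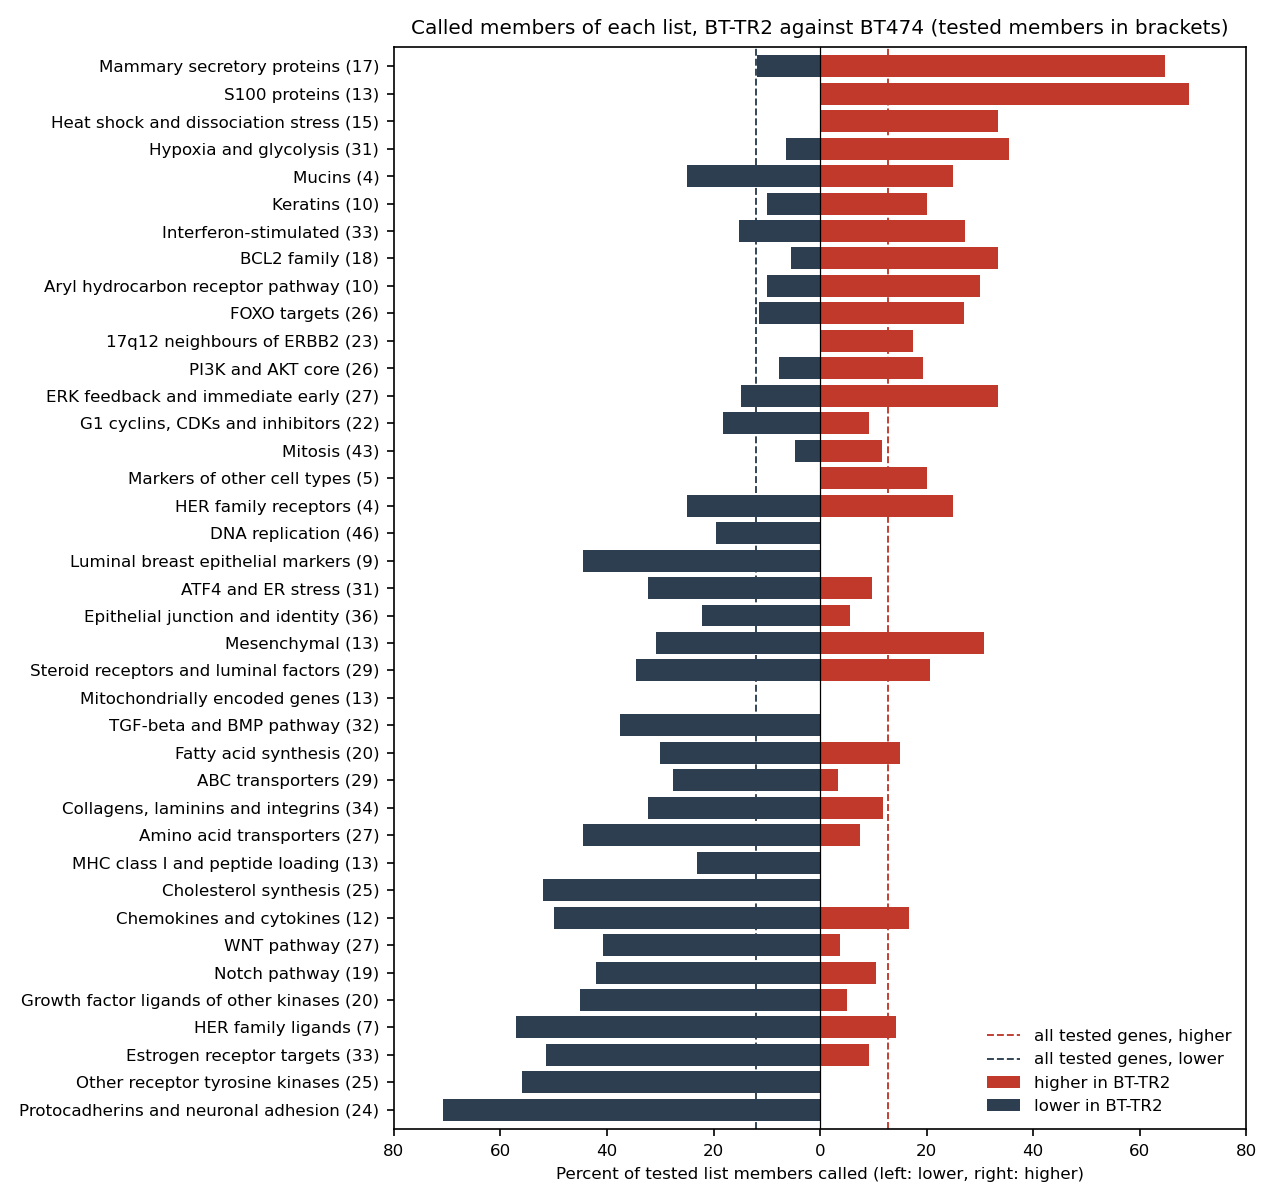
Bars give the percent of tested members of each list that were called higher (right) or lower (left) in BT-TR2 than in BT474, with the number tested in brackets and lists ordered by their median change. Dashed lines mark 12.7% and 12.1%, the share of all tested genes called higher and lower; the S100 and mammary secretory lists lie farthest to the right and the protocadherin and neuronal adhesion list farthest to the left.

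Of 26 tested PI3K and AKT pathway genes 5 rose and 2 fell, with a median of 0.05, and without BT-TR2 replicate 3 the test called 4. With the replicate block 10 rose and 5 fell. PIK3R1, the regulatory subunit p85-alpha, fell to 34.8, 40.6 and 41.7 CPM in BT-TR2, against 63.2, 70.6 and 60.9 CPM in BT474 (-0.73 ± 0.12, adjusted p = 0.000211), MTOR had a change of -0.41 ± 0.11, and GSK3A of 0.72 ± 0.18. PIK3CA stood at 21.1, 26.9 and 28.3 CPM in BT-TR2 and 16.5, 22.3 and 21.8 CPM in BT474, was not called (0.33 ± 0.18, adjusted p = 0.197) and was called with the block (0.33 ± 0.09, adjusted p = 0.00339). Of 26 FOXO targets 7 rose and 3 fell, and 10 and 5 with the block, and the total of 10 was 6 without BT474 replicate 1, BT-TR2 replicate 2 or BT-TR2 replicate 3. SESN3, a sestrin, rose to 9.54, 10.5 and 11.2 CPM in BT-TR2, against 3.74, 5.48 and 5.08 CPM in BT474 (1.12 ± 0.20, adjusted p = 0.000486), and BCL2L11, the pro-apoptotic BIM, had a change of 0.53 ± 0.12. FBXO32, a ubiquitin ligase subunit, fell to 16.3, 19.8 and 20.7 CPM in BT-TR2, against 51.6, 52.6 and 57.6 CPM in BT474 (-1.51 ± 0.12, adjusted p = 3.82e-08), and TNFSF10, the death ligand TRAIL, had a change of -0.80 ± 0.17.

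Of 27 genes of ERK feedback and the immediate early response 9 rose and 4 fell, with a median of 0.01. The feedback inhibitor DUSP6, an ERK phosphatase, rose to 47.4, 46.7 and 47 CPM in BT-TR2, against 33.5, 33.2 and 28.4 CPM in BT474 (0.57 ± 0.12, adjusted p = 0.0024), and SPRY4, a sprouty protein, had a change of 0.81 ± 0.17. The AP-1 subunit FOS fell to 2.58, 2.11 and 1.99 CPM in BT-TR2, against 9.07, 7.34 and 8.94 CPM in BT474 (-1.92 ± 0.24, adjusted p = 1.3e-05), and FOSL2 to 89.2, 81.8 and 79.8 CPM in BT-TR2, against 157, 149 and 177 CPM in BT474 (-0.94 ± 0.11, adjusted p = 3.61e-06).

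Several estrogen receptor signalling genes fell. ESR1, the estrogen receptor alpha, fell to 42.8, 45.2 and 44.8 CPM in BT-TR2, against 75.3, 81.1 and 88.1 CPM in BT474 (-0.88 ± 0.10, adjusted p = 4.39e-06), and PGR, the progesterone receptor and itself an estrogen target, to 183, 219 and 211 CPM in BT-TR2, against 451, 540 and 573 CPM in BT474 (-1.35 ± 0.17, adjusted p = 1.08e-05). The luminal factor GATA3 fell to 110, 83 and 91.6 CPM in BT-TR2, against 191, 163 and 180 CPM in BT474 (-0.91 ± 0.11, adjusted p = 1.12e-05), and FOXA1, which opens chromatin for ESR1, had a change of -0.38 ± 0.09. NR3C1, the glucocorticoid receptor, rose to 13.4, 14.7 and 17.9 CPM in BT-TR2, against 6.04, 8.74 and 7.89 CPM in BT474 (1.02 ± 0.18, adjusted p = 0.000328). ELF5, a factor of luminal progenitors, stood at 23.8, 25.6 and 25.6 CPM in BT-TR2, against 13.2, 16.6 and 15.6 CPM in BT474 (0.72 ± 0.11, adjusted p = 0.000132), and RARG, a retinoic acid receptor, had a change of 0.82 ± 0.21. In all, 6 of 29 steroid receptors and luminal factors rose and 10 fell.

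Of 33 tested estrogen receptor targets 3 rose and 17 fell, with a median of -0.65, and with any 1 library left out 15 to 17 fell. IGFBP5, a secreted binder of insulin-like growth factors, fell to 1780, 2020 and 2180 CPM in BT-TR2, against 12200, 12400 and 11800 CPM in BT474 (-2.60 ± 0.14, adjusted p = 2.3e-10). GREB1 fell to 213, 187 and 194 CPM in BT-TR2, against 444, 402 and 416 CPM in BT474 (-1.09 ± 0.11, adjusted p = 8.29e-07). CXCL12 fell to 18, 15.3 and 16.5 CPM in BT-TR2, against 47.8, 51 and 53.1 CPM in BT474 (-1.61 ± 0.10, adjusted p = 1.13e-09), and AGR3 to 3.24, 3.76 and 3.08 CPM in BT-TR2, against 14.6, 22.9 and 14.6 CPM in BT474 (-2.36 ± 0.21, adjusted p = 1.24e-07). In these 4 genes the libraries did not overlap.

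The proliferation lists differed in how many members were called, against 12.7% higher and 12.1% lower of all tested genes. MKI67 was not called (-0.04 ± 0.21, adjusted p = 0.901), and neither was CCND1 (-0.21 ± 0.10, adjusted p = 0.127), which was called in 1 of 17 alternatives, the block with the correction for GC content (adjusted p = 0.0471, edgeR). MKI67 stood at 119, 149 and 152 CPM in BT-TR2 and 104, 167 and 161 CPM in BT474. Of 43 mitosis genes 5 rose and 2 fell, 7 in all, and 4 without replicate 2 of either group or without BT-TR2 replicate 3; with the block 7 rose and 4 fell, and with replicates 2 and 3 alone 6 rose and 10 fell. AURKA, a mitotic kinase, rose to 327, 349 and 335 CPM in BT-TR2, against 193, 207 and 239 CPM in BT474 (0.66 ± 0.11, adjusted p = 0.000176), and PTTG1, securin, had a change of 0.50 ± 0.13. Of 46 DNA replication genes none rose and 9 fell, with a median of -0.16, and 5 fell without BT474 replicate 1 and 18 with the block. UHRF1, which recruits the maintenance DNA methyltransferase, fell to 19.1, 13.1 and 12.8 CPM in BT-TR2, against 34.8, 25.9 and 23.2 CPM in BT474 (-0.90 ± 0.23, adjusted p = 0.00719). Of 22 G1 genes 2 rose and 4 fell, and 3 and 7 with the block. CDKN2D, an inhibitor of CDK4 and CDK6, stood at 10.9, 8.6 and 9.3 CPM in BT-TR2, against 5.82, 3.72 and 5.4 CPM in BT474 (0.94 ± 0.16, adjusted p = 0.000334), E2F2 had a change of -0.54 ± 0.12 and RBL1 of -0.65 ± 0.14. In the BCL2 family 6 of 18 rose and 1 fell, with a median of 0.12 and a range from -1.09 to 1.68. The total of 7 was 4 without BT474 replicate 2. The fall was BCL2, an inhibitor of apoptosis and an estrogen target, at 20, 23.2 and 22.3 CPM in BT-TR2, against 35.2, 54.5 and 49.6 CPM in BT474 (-1.09 ± 0.17, adjusted p = 0.000131).

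Genes of cell shape and matrix changed in both directions. Of 36 epithelial junction genes 2 rose and 8 fell, and 4 and 14 with the block. The desmosomal cadherins DSG2 and DSC2 fell, DSG2 to 138, 149 and 171 CPM in BT-TR2, against 302, 374 and 309 CPM in BT474 (-1.10 ± 0.12, adjusted p = 2.3e-06) and DSC2 with a change of -0.71 ± 0.13. CDH1, E-cadherin, had a change of -0.43 ± 0.13 that was lost without replicate 2 of either group. Of 13 mesenchymal genes 4 rose and 4 fell. TGFBI, a secreted adhesion protein, rose to 14.7, 12.9 and 13.3 CPM in BT-TR2, against 2.8, 2.74 and 2.59 CPM in BT474 (2.33 ± 0.18, adjusted p = 1.94e-08), while TWIST1, a factor of epithelial-mesenchymal transition, fell to 4.5, 4.69 and 5.19 CPM in BT-TR2, against 6.65, 10.5 and 11.3 CPM in BT474 (-0.99 ± 0.22, adjusted p = 0.00297). Of 34 collagens, laminins and integrins 4 rose and 11 fell, and 5 and 17 with the block. With 1 library left out 1 to 4 rose, and with the compared groups alone 1 did. COL12A1 fell to 258, 269 and 302 CPM in BT-TR2, against 881, 1070 and 899 CPM in BT474 (-1.78 ± 0.14, adjusted p = 3.94e-08) and COL4A5 had a change of -1.78 ± 0.17, while COL5A2 stood at 7.8, 9.06 and 8.78 CPM in BT-TR2, against 3.3, 3.41 and 3.58 CPM in BT474 (1.31 ± 0.15, adjusted p = 3.83e-06). Of 10 keratins 2 rose and 1 fell, and 4 and 1 with the block; KRT80 rose to 45.9, 41.8 and 43.4 CPM in BT-TR2, against 23.6, 15.6 and 20.7 CPM in BT474 (1.13 ± 0.14, adjusted p = 7.75e-06). Of 4 tested mucins 1 rose and 1 fell, and 2 and 1 with the block, with changes from -1.13 to 3.86. The fall was MUC1, the membrane mucin, at 32.3, 27.1 and 31.2 CPM in BT-TR2, against 89.1, 47.9 and 60.7 CPM in BT474 (-1.13 ± 0.25, adjusted p = 0.00318).

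Among metabolic genes, 13 of 25 tested cholesterol synthesis genes fell and none rose, with a median of -0.47, and with the block 17 fell and 2 rose. This count was 7 without BT474 replicate 1, 6 without BT-TR2 replicate 2 and 7 without BT-TR2 replicate 3. LSS, lanosterol synthase, fell to 3.96, 3.4 and 2.56 CPM in BT-TR2, against 9.72, 6.67 and 5.76 CPM in BT474 (-1.15 ± 0.28, adjusted p = 0.00495). Of 20 fatty acid synthesis genes 3 rose and 6 fell. ME1, which supplies NADPH, rose to 25, 28.8 and 26.5 CPM in BT-TR2, against 8.52, 11.6 and 9.3 CPM in BT474 (1.45 ± 0.15, adjusted p = 1.12e-06), and ACSS2, which makes acetyl-CoA from acetate, had a change of 0.61 ± 0.15. ELOVL5, an elongase, fell to 422, 399 and 452 CPM in BT-TR2, against 805, 940 and 749 CPM in BT474 (-0.97 ± 0.13, adjusted p = 2.77e-05), and SCD5 had a change of -0.86 ± 0.13.

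Of 31 hypoxia and glycolysis genes 11 rose and 2 fell, with a median of 0.28. Without BT474 replicate 2 the test called 8 in all, and with the block 18 rose and 3 fell. EPAS1 (HIF-2-alpha) rose to 17.5, 16.9 and 14.8 CPM in BT-TR2, against 6.37, 6.21 and 6.9 CPM in BT474 (1.34 ± 0.10, adjusted p = 2.12e-08), NDRG1 to 67.8, 105 and 94.5 CPM in BT-TR2, against 41, 29.5 and 39.7 CPM in BT474 (1.27 ± 0.22, adjusted p = 0.000398) and LDHA, lactate dehydrogenase A, to 536, 619 and 615 CPM in BT-TR2, against 372, 342 and 416 CPM in BT474 (0.65 ± 0.11, adjusted p = 0.000217). SLC2A1, the glucose transporter GLUT1, went the other way, at 114, 90.5 and 96.6 CPM in BT-TR2, against 263, 166 and 177 CPM in BT474 (-1.01 ± 0.21, adjusted p = 0.00179). Of 31 ATF4 and endoplasmic reticulum stress genes 3 rose and 10 fell, 6 and 13 with the block, and 1 to 5 rose with 1 library left out. The chaperones CALR and HYOU1 fell, CALR to 752, 704 and 793 CPM in BT-TR2, against 1300, 1570 and 1150 CPM in BT474 (-0.84 ± 0.16, adjusted p = 0.000634) and HYOU1 with a change of -0.86 ± 0.12, while MTHFD2, a mitochondrial folate enzyme, rose (0.49 ± 0.10, adjusted p = 0.00135).

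Of 27 amino acid transporters 2 rose and 12 fell, 9 in all without BT474 replicate 2. SLC7A11, the cystine transporter, fell to 2.64, 3.66 and 4.04 CPM in BT-TR2, against 8.08, 11.5 and 6.53 CPM in BT474 (-1.34 ± 0.24, adjusted p = 0.000584), and SLC6A6, the taurine transporter, had a change of -1.13 ± 0.13. Of 29 ABC transporters 1 rose and 8 fell, and 4 and 15 with the block, with changes of -1.71 ± 0.20 at ABCA4, a retinoid flippase, and -0.89 ± 0.12 at ABCC5, an exporter of cyclic nucleotides. Of 15 heat shock genes 5 rose and none fell, and 9 and 1 with the block. The co-chaperone DNAJB1 rose to 233, 222 and 232 CPM in BT-TR2, against 120, 113 and 143 CPM in BT474 (0.87 ± 0.09, adjusted p = 1.34e-06), DNAJA1 had a change of 0.81 ± 0.17 and BAG3 of 0.78 ± 0.17. These genes also answer to how cells are handled before lysis, and their part in other changes was not tested. Of 13 mitochondrially encoded genes the test called none, the block 2, both lower.

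In the developmental pathways more genes fell than rose, while of all tested genes 12.1% fell and 12.7% rose. Of 19 Notch pathway genes 2 rose and 8 fell, with a median of -0.51, and the total of 10 was 6 without BT-TR2 replicate 3. NOTCH1 fell to 18.8, 10.1 and 11.9 CPM in BT-TR2, against 53.2, 30.9 and 25.7 CPM in BT474 (-1.43 ± 0.34, adjusted p = 0.0047), and HEY2, a Notch target, had a change of -0.73 ± 0.16. DTX4, a deltex ubiquitin ligase, rose to 36.8, 33.8 and 35.7 CPM in BT-TR2, against 14, 11.1 and 12.1 CPM in BT474 (1.51 ± 0.12, adjusted p = 3.32e-08). Of 27 WNT pathway genes 1 rose and 11 fell, with a median of -0.49. The rise was DKK1, a secreted WNT inhibitor, at 50, 36.4 and 40 CPM in BT-TR2, against 15.1, 15.8 and 12.4 CPM in BT474 (1.55 ± 0.14, adjusted p = 2.29e-07). WNT9A fell to 8.22, 4.84 and 5.26 CPM in BT-TR2, against 23.9, 12.2 and 12.7 CPM in BT474 (-1.41 ± 0.31, adjusted p = 0.00245), the R-spondin receptor LGR4 had a change of -0.79 ± 0.12, and the receptor FZD1 of -0.77 ± 0.16. Of 32 TGF-beta and BMP genes none rose and 12 fell, with a median of -0.27, and with the block 3 rose and 14 fell. FSTL1, a secreted modulator of BMP signals, fell to 26.1, 26.6 and 29.6 CPM in BT-TR2, against 112, 122 and 106 CPM in BT474 (-2.04 ± 0.15, adjusted p = 1.66e-08). The BMP targets ID1 and ID3 fell, ID1 to 6.3, 4.79 and 3.72 CPM in BT-TR2, against 24.9, 13.5 and 12.4 CPM in BT474 (-1.78 ± 0.28, adjusted p = 0.000141) and ID3 with a change of -1.49 ± 0.24.

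Immune genes gave mixed counts. Of 12 chemokines and cytokines 2 rose and 6 fell. CXCR4, the receptor of CXCL12, rose to 64.4, 48 and 50.2 CPM in BT-TR2, against 21.7, 18.4 and 17 CPM in BT474 (1.51 ± 0.22, adjusted p = 6.13e-05), and TNFSF15 fell to 9.42, 11.1 and 12.4 CPM in BT-TR2, against 28.9, 28.1 and 21 CPM in BT474 (-1.24 ± 0.16, adjusted p = 1.7e-05). Of 33 interferon-stimulated genes 9 rose and 5 fell, 14 in all, and 9 or 8 without BT474 replicate 2 or 3. Their median change was 0.18, with a range from -1.10 to 3.49. Among the 5 falls were HERC6 (-1.02 ± 0.19, adjusted p = 0.000596) and OAS3 (-0.71 ± 0.15, adjusted p = 0.00213). MX1, an interferon-induced gene given further below, rose (1.03 ± 0.22, adjusted p = 0.00208). Of 13 tested MHC class I and peptide loading genes none rose and 3 fell. The count was 5 without BT474 replicate 1, 6 without BT-TR2 replicate 1, and 9 fell with the block, with 1 higher. ERAP1, which trims peptides, had a change of -0.52 ± 0.13. Of 10 aryl hydrocarbon receptor genes 3 rose and 1 fell, and 4 and 3 with the block. CYP1A1, its classic target, rose to 16.3, 16.5 and 16.5 CPM in BT-TR2, against 5.77, 5.48 and 4.72 CPM in BT474 (1.63 ± 0.18, adjusted p = 2.23e-06), and NQO1 to 182, 183 and 171 CPM in BT-TR2, against 114, 123 and 137 CPM in BT474 (0.52 ± 0.10, adjusted p = 0.000715).

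The changes against BT474 of the other pools rest on the same 3 BT474 libraries, so the values are given side by side and no overlap between the comparisons is drawn. Against BT474 the test called 24.9% of genes in BT-TR2, 43.6% in BT-TR1 (21.3% higher and 22.3% lower), and, of the pools resistant to both antibodies, 27.3% for BT-TPR1 (12.9% higher, 14.4% lower) and 31.6% for BT-TPR2 (15.6% higher, 16% lower). SCGB2A2 had log2 fold changes of 7.20 in BT-TR2, 6.65 in BT-TR1, 5.61 in BT-TPR1 and 3.42 in BT-TPR2. PPP1R1B had 3.87 in BT-TR2, 3.38 in BT-TR1, 5.40 in BT-TPR1 and 5.12 in BT-TPR2. By these estimates the mammaglobin gene was highest in BT-TR2 and the DARPP-32 gene in BT-TPR1. GFRA1 had -3.55 in BT-TR2, -4.22 in BT-TR1, -2.67 in BT-TPR1 and -4.57 in BT-TPR2. PGR had -1.35 in BT-TR2, -1.44 in BT-TR1, 0.44 in BT-TPR1 and -1.55 in BT-TPR2. AMBP had 3.27 in BT-TR2, 2.35 in BT-TR1, 0.73 in BT-TPR1 and 2.51 in BT-TPR2, and CST1 had 2.62 in BT-TR2, 2.24 in BT-TR1, 2.57 in BT-TPR1 and 0.53 in BT-TPR2.

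**Figure D4:**
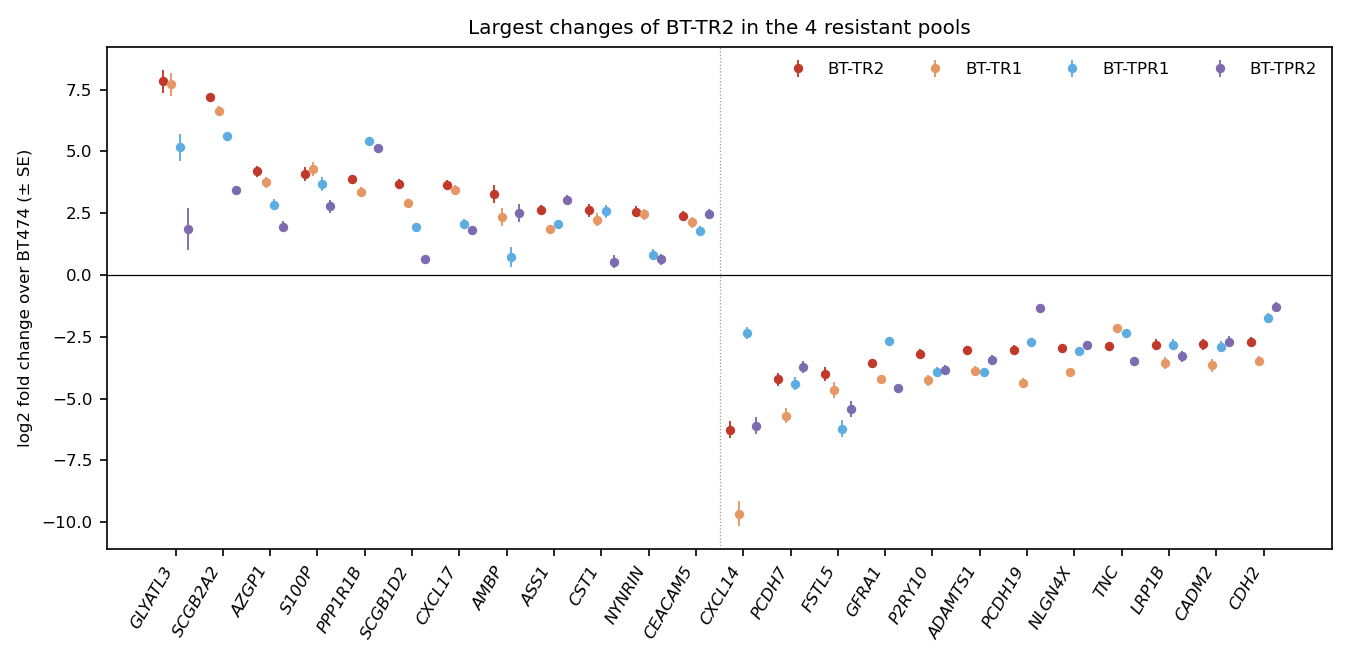
The y axis gives the log2 fold change over BT474 with its standard error, for the 12 largest rises (left of the dotted line) and 12 largest falls of BT-TR2, in BT-TR2 and then in BT-TR1, BT-TPR1 and BT-TPR2; all 4 share the BT474 libraries. The estimates of PPP1R1B are higher in BT-TPR1 (5.40) than in BT-TR2 (3.87), and the value of CXCL14 in BT-TR1 rests on 1 count in 3 libraries and is no bound.

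The test of BT-TR2 against BT-TR1, the other pool resistant to trastuzumab alone, called 3129 genes (17.7%), 1701 higher in BT-TR2 (9.64%) and 1428 lower (8.09%). Across genes this difference correlated with GC content at r = 0.635, and its count moved with single libraries. It was 562 without BT-TR2 replicate 1, 693 without BT-TR1 replicate 3 and 882 without BT-TR1 replicate 2, and 1663 with the correction for GC content. The balance of directions moved too. The share of calls higher in BT-TR2 was 54.4%, against 67.3% with no filter, 80.4% with library size alone and 38.5% with the correction for GC content, and it was 41.1% to 43.5% without BT-TR2 replicate 1, BT-TR1 replicate 2 or BT-TR1 replicate 3.

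With that limit, HPGD, the enzyme that degrades prostaglandins, stood at 1.62, 1.24 and 1.03 CPM in BT-TR2, against 10.9, 9.05 and 14 CPM in BT-TR1 (-3.11 ± 0.28, adjusted p = 1.01e-05), and against BT474 it was not called (-0.04). KRT4, a keratin of stratified epithelium, stood at 3.06, 2.63 and 3.01 CPM in BT-TR2, against 13.9, 9.4 and 9.11 CPM in BT-TR1 (-1.91 ± 0.25, adjusted p = 0.000226). DKK1, higher than BT474 in both pools by estimate, stood at 50, 36.4 and 40 CPM in BT-TR2, against 130, 139 and 132 CPM in BT-TR1 (-1.66 ± 0.14, adjusted p = 4.9e-06). AGR3 stood at 3.24, 3.76 and 3.08 CPM in BT-TR2, against 10.2, 10.4 and 13.5 CPM in BT-TR1 (-1.74 ± 0.21, adjusted p = 0.000125), CNTN1, a neural adhesion gene, at 4.98, 5.46 and 5.71 CPM in BT-TR2, against 13.4, 17.4 and 17.4 CPM in BT-TR1 (-1.57 ± 0.16, adjusted p = 4.64e-05), and FAM101A at 9.9, 5.1 and 4.68 CPM in BT-TR2, against 34, 27.9 and 20.9 CPM in BT-TR1 (-2.08 ± 0.28, adjusted p = 0.000387). In all 6 the libraries of the pools did not overlap, and with the correction for GC content the difference of FAM101A was -2.88. CALML5, a calmodulin-like protein, stood at 26.6, 10.5 and 8.14 CPM in BT-TR2, against 2.52, 2.26 and 0.528 CPM in BT-TR1 (2.99 ± 0.59, adjusted p = 0.00435). It has a GC content of 67.1%, and the difference was 1.85 with the correction for GC content and 2.30 without BT-TR2 replicate 1. DGCR6L, FBXW5, BAD and POLR2L, all with GC content of 61.6% to 66.5%, were also called higher in BT-TR2 (1.96, 1.83, 1.81 and 1.77), and none of these 4 was called against BT474. With the correction for GC content the differences were 1.12 for DGCR6L, 0.75 for FBXW5, 0.85 for BAD and 1.00 for POLR2L. FBXW5, BAD and POLR2L lost the call without BT-TR2 replicate 1 or BT-TR1 replicate 2 or 3, BAD lost it also with the correction for GC content, and DGCR6L has a near-identical neighbour with which it can share reads.

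Only genes that passed the test against BT474 and against each of the other 3 pools in the same direction can be called apart for BT-TR2 in these data. There were 29 higher (0.164% of tested genes) and 13 lower (0.0737%). Some of the 29 reached the level of the count filter, among these groups, only in BT-TR2, so their direction was partly fixed by the filter. The total of 42 was 12 without BT-TR2 replicate 1, 25 without BT-TR1 replicate 2 and 27 without BT-TR1 replicate 3 or BT-TPR1 replicate 2, and it was 177 with the replicate block. With the correction for GC content 31 were higher and 34 lower, and with that correction and the block 66 were higher and 95 lower, so the balance toward higher genes did not hold there. With no filter 53 were higher and 7 lower, and with library size alone 32 and 5. The 4 tests share the BT-TR2 libraries, and leaving out BT-TR1 replicate 1 gave 46.

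SCGB2A2 and SCGB1D2 were among the 29. SCGB1D2 stood at 123, 83 and 87.7 CPM in BT-TR2, against 61.6, 55.2 and 51.5 in BT-TR1, 30.4, 26.4 and 29.7 in BT-TPR1, 11.9, 10.9 and 12.4 in BT-TPR2 and 9.07, 6.31 and 7.3 in BT474. FMOD, fibromodulin, a small proteoglycan that binds collagen, stood at 378, 278 and 334 CPM in BT-TR2, against 210, 209 and 193 in BT-TR1, 86.2, 74.5 and 102 in BT-TPR1, 41.5, 34.4 and 44.9 in BT-TPR2 and 77.8, 55.9 and 57.9 in BT474. HOPX, a homeodomain-only protein, stood at 12.2, 11.4 and 9.55 CPM in BT-TR2, against 7.12, 4.35 and 5.94 in BT-TR1, 3.79, 4.15 and 3.33 in BT-TPR1, 3.2, 3.54 and 3.45 in BT-TPR2 and 6.1, 5.27 and 4.9 in BT474, and its smallest difference over the 4 tests was 0.93. ARHGDIB averaged 26.5 ± 0.761 CPM in BT-TR2 and 14.3 ± 0.863 CPM in BT474, with 17.9 CPM in BT-TR1, 12.6 CPM in BT-TPR1 and 16.6 CPM in BT-TPR2. C1orf115 averaged 64 ± 2.73 CPM in BT-TR2 and 35.5 ± 3.47 CPM in BT474, with 42.2 CPM in BT-TR1, 43.2 CPM in BT-TPR1 and 30.8 CPM in BT-TPR2. Its difference from BT-TR1 was 0.37 with the correction for GC content and was not called there (adjusted p = 0.0826, edgeR).

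On the lower side, LRP2 (megalin, an endocytic receptor) stood at 47.3, 45 and 49.2 CPM in BT-TR2, against 75.6, 90.7 and 77.7 in BT-TR1, 70.8, 62.4 and 75.9 in BT-TPR1, 70.3, 63.7 and 64.6 in BT-TPR2 and 98.9, 96.4 and 79.3 in BT474. ABCC2, the exporter MRP2, averaged 38.3 ± 0.834 CPM in BT-TR2 and 58.5 ± 4.24 CPM in BT474, with 53.8 CPM in BT-TR1, 104 CPM in BT-TPR1 and 97.8 CPM in BT-TPR2. In BT-TR2 it was below BT474, and in BT-TPR1 and BT-TPR2 the means were above BT474. RYR3, a calcium release channel, and NRXN3, a neurexin, had smallest differences of -0.49 and -0.59. FAM129A and ZNF197 had -0.59 and -0.66, but their fall against BT474 was lost without BT474 replicate 2, and that of FAM129A also without BT-TR2 replicate 2.

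**Figure D5:**
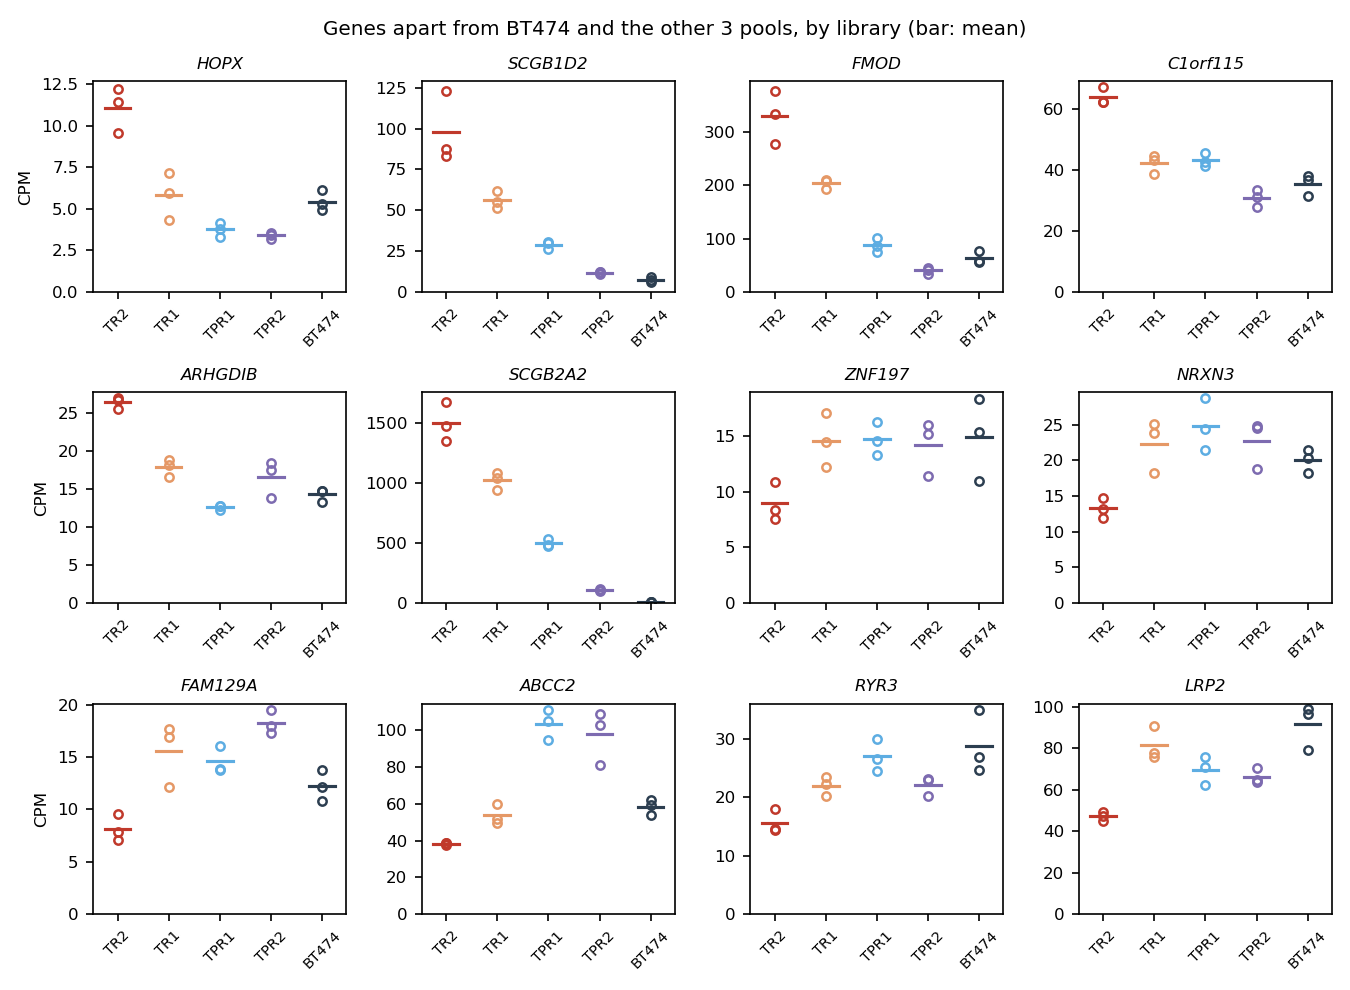
CPM by library (points) and group mean (bars) are given on linear axes from 0, in BT-TR2, BT-TR1, BT-TPR1, BT-TPR2 and BT474. Shown are the 6 higher and 6 lower genes with the largest smallest difference among those called against all 4 groups and met by the rule for naming. That rule required a mean of 5 CPM or more over all these groups, so genes of lower level with larger differences are absent. In each panel the 3 BT-TR2 libraries lie above or below all others, as the rule for naming required.

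Several genes apart in BT-TR2 had means over both groups under the 5 CPM required of named genes and are given because of the size of their changes, seen first. FOLR1, folate receptor alpha, stood at 4.56, 1.96 and 3.27 CPM in BT-TR2, against 0, 0 and 0 CPM in BT474, or 165 counts against 0. Against the limit of 3 counts over the BT474 group, the pooled counts give a ratio of 63.4. It allows for counting error in BT474 only and is no lower bound over libraries. LIPE, hormone-sensitive lipase, stood at 4.98, 2.83 and 3.46 CPM in BT-TR2, against 0.0549, 0.0517 and 0.0907 CPM in BT474, or 192 counts against 4, a ratio of 55.3 with an exact interval of 21.3 to 205. In BT-TR1, BT-TPR1 and BT-TPR2, FOLR1 averaged 1.06, 0.162 and 0.112 CPM and LIPE 1.6, 0.466 and 0.437 CPM. Both were called above BT474 in every pool, with the highest level in BT-TR2. SLC1A3, a glutamate transporter, stood at 2.22, 1.8 and 2.37 CPM in BT-TR2, against 0.275, 0.103 and 0.227 CPM in BT474 (3.35 ± 0.33, adjusted p = 6.73e-07). KRT75, a hair follicle keratin, had 68 counts in BT-TR2 and 2 in BT474. The ratio was 39.2 with an exact interval of 10.4 to 330. MEG3, an imprinted noncoding RNA, had 43 and 3, a ratio of 16.5 with an interval of 5.29 to 83.3. The intervals of LIPE, KRT75 and MEG3 cover counting error only. Among BT474 and the pools, KRT75, MEG3 and SLC1A3 reached the level of the count filter in all libraries only in BT-TR2. That they are higher there was partly fixed by the filter. REG4, a secreted lectin of the gut, stood at 5.88, 5.1 and 6.35 CPM in BT-TR2, against 0.769, 1.34 and 1.27 CPM in BT474 (2.34 ± 0.26, adjusted p = 2.29e-06). MX1, an interferon-induced GTPase, stood at 2.46, 2.32 and 2.05 CPM in BT-TR2, against 0.989, 1.34 and 0.998 CPM in BT474 (1.03 ± 0.22, adjusted p = 0.00208). In BT-TR1, BT-TPR1 and BT-TPR2, REG4 averaged 2.59, 1.68 and 0.474 CPM, SLC1A3 0.493, 0.204 and 0.106 CPM, and MX1 1.29, 0.9 and 1.23 CPM. REG4 was called above BT474 in BT-TR1 too.

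Along the chromosomes, the median log2 fold change was taken over 3404 windows of 25 consecutive tested genes, each 5 genes from the next, so that windows overlap. It lay between -0.33 and 0.27 in the middle 90% of windows, leaving out the lowest and highest 5%. The highest windows were on chromosome 6 from 25.28 to 26.27 Mb, which holds histone genes (0.58, 6 genes called higher and 0 lower), and on chromosome 9 from 35.09 to 37.44 Mb (0.55, 10 higher and 0 lower). The lowest were on chromosome 1 from 1.08 to 1.6 Mb (-0.99, 0 higher and 12 lower), next to it from 0.19 to 1.07 Mb (-0.83), and on chromosome 8 from 144.14 to 144.61 Mb (-0.72). Of the windows, 4 had a median over 0.5 and 51 under -0.5. Mean GC content had a median of 48.3% over all windows, 60.2% over those under -0.5 and 50.7% over those above 0.5. Its part in these medians was not tested. In the lowest window the median was -1.56 in BT-TR1, -0.57 in BT-TPR1 and -0.76 in BT-TPR2. For the same pools in that order it was 0.19, 0.81 and 0.81 in the chromosome 6 window. In the chromosome 9 window it was -0.02, 0.16 and 0.35.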

How the data were processed

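RNA-seq was deposited for 21 libraries in 7 groups of 3. Per the submitters' processing notes, Bowtie2, featureCounts, DESeq2 and the build hg38 were used; versions, strandedness and annotation are not given in the sources used here. The deposited table holds raw counts per gene. A second deposited table holds variance-stabilized values on a log2-like scale and was used in 1 alternative. Without known strand, overlapping and antisense genes are uncertain.

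Columns were matched to samples by name. edgeR 4.0.16 in R 4.3.3 was fitted to all 21 libraries with a term per group, which share 1 estimate of spread (14 residual degrees of freedom). Genes passed a filter on low counts (filterByExpr by group, minimum count 10, minimum total 15), libraries were scaled by TMM, and p-values were adjusted over all tested genes. Standard errors were derived from the fold change and the F statistic. Named genes had an adjusted p under 0.05, a level of 5 CPM or more and no overlap between groups. The level was averaged over the groups compared, which for genes apart in BT-TR2 were BT474 and all 4 pools. Named were the 12 largest rises and falls, the 6 largest each way for the other contrasts, and up to 3 each way per list. A further 14 genes of interest were added. Members and lists were chosen with earlier results of these data known. GENCODE 29 gave gene positions, types and GC content.

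Same-numbered libraries of BT-TR2 and BT474 deviated from their group means together (r = 0.584, 0.323 and 0.286 for replicates 1, 2 and 3), each over 0.1. Replicates 2 and 3 did so across numbers too (r = 0.22 and 0.237), while replicate 1 went against both (r = -0.42 to -0.368). These values set replicate 1 apart and do not establish pairs for replicates 2 and 3. The labels do not say what a number stands for, so the block is given as an alternative. The other alternatives were the filter, the scaling, the libraries entering the fit, DESeq2 1.42.0, limma 3.58.1 on the deposited log2 values, leaving out each library, and a correction for GC content (a spline in 17554 genes), chosen after seeing the data. The scripts were tested on simulated data. Some genes that the lists or the rule include are not reported here.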

Additional observations from a re-analysis of the deposited data

Results flagged for a closer look

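These results stood out because the change over BT474 differed between BT-TR2 and BT-TR1, the pools resistant to trastuzumab alone. The difference itself, BT-TR2 minus BT-TR1 on the log2 scale, passed edgeR's quasi-likelihood test at an adjusted p under 0.05 both without and with the correction for GC content. The number of genes passing the uncorrected test moved between 562 and 4477 when single libraries were left out, so single differences are given as values with no explanation. With replicates 2 and 3 alone the difference was not called for CADM2 (adjusted p = 0.266), CDH2 (0.147), ERBB4 (0.11), COL4A5 (0.0844) and MEG3 (0.0629).

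Among genes higher in BT-TR2 than in BT474, the difference was 0.55 for SCGB2A2, 0.80 for SCGB1D2, 0.79 for ASS1, 0.93 for HOPX, 0.56 for ARHGDIB, 0.69 for FMOD, 1.62 for FOLR1, 2.79 for KRT75, 1.90 for MEG3, 2.17 for SLC1A3 and 1.10 for REG4, all higher in BT-TR2 than in BT-TR1. It was -0.77 for TGFA, -0.66 for EPAS1, -1.66 for DKK1 and -0.70 for NQO1, which were lower in BT-TR2 than in BT-TR1. The values of KRT75, MEG3 and SLC1A3 carry the limit of the count filter given above.

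Among genes lower in BT-TR2 than in BT474, the level was higher in BT-TR2 than in BT-TR1, by 1.47 for PCDH7, 1.35 for PCDH19, 1.06 for P2RY10, 0.98 for NLGN4X, 0.85 for CADM2, 0.84 for COL4A5, 0.83 for ADAMTS1, 0.78 for CDH2, 0.68 for CLU, 0.66 for GFRA1, 0.59 for KITLG, 0.54 for ERBB4 and 0.48 for CXCL12.

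The level was lower in BT-TR2 than in BT-TR1 for other genes that fell against BT474. The difference was -1.74 for AGR3, -1.28 for TNFSF15, -0.93 for FAM129A, -0.79 for LRP2, -0.75 for NRXN3, -0.72 for TNC, -0.70 for ZNF197, -0.54 for ERAP1, -0.49 for ABCC2, -0.49 for RYR3, -0.48 for FBXO32 and -0.31 for EFNB2.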

How the results depend on the processing

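Of 144 genes named as called against BT474, all kept the call with the replicate block, with replicates 2 and 3 alone, with RLE scaling, with DESeq2 and with limma. With any 1 library of these groups left out at most 7 lost it, and 10 lost it when the fit held the compared groups alone. The count of genes called against BT474 was 8076 with the replicate block, 2620 with the compared groups alone, 6695 with the correction for GC content and 8554 with that correction and the block; the cause was not tested. With library size alone the median of all genes moved to 0.077 and 59.2% of calls were higher, against 51.2%.

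Against BT-TR1 the count was 7555 with the replicate block, 5339 with replicates 2 and 3 alone, 1180 with the compared groups alone and 1663 with the correction for GC content, and 562 to 4477 with 1 library left out. Same-numbered libraries of these pools correlated at 0.496, 0.069 and 0.318, so the numbers were not taken as pairs there. The count of genes apart from all 4 groups was 177 with the replicate block, 16 with the compared groups alone, 65 with the correction for GC content, 161 with that correction and the block, and 12 to 46 with 1 library left out. 

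Signs changed for 2 genes near 0. ERBB2 (-0.09) was 0.01 with the correction for GC content, with or without the block, and -0.27 to 0.13 with 1 library left out. MKI67 (-0.04) was 0.03 with library size alone and -0.22 to 0.09 with 1 library left out. With limma on the deposited values, whose variance stabilization compresses low counts, changes against BT474 were smaller for AMBP (2.52), CXCL14 (-4.87), FSTL5 (-3.04), PCDH7 (-3.51), CDH5 (1.96), LIPE (2.79) and SLC1A3 (1.79). Depth limits the genes of a few counts, most of all in BT-TR1, where libraries held 7939270 to 13432287 counts.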

Other observations

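Processed pseudogenes, copies of messenger RNAs inserted in the genome, were called unevenly. Of 2606 tested, 382 were higher in BT-TR2 than in BT474 and 58 were lower, while of 12595 protein-coding genes 1695 were higher and 1801 lower. Reads of a pseudogene can belong to its near-identical parent gene, and how such reads were counted is not given in the sources used here.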
